A study of Mus musculus with 21 samples.

Results

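The 10 genes described here mark oligodendrocyte precursor cells and the first steps of their differentiation into myelin-forming cells. They were chosen by name (*Pdgfra*, *Cspg4*, *Tnr*, *Olig1*, *Olig2*, *Sox10*, *Neu4*, *Gpr17*, *Bmp4* and *Enpp6*) among the 55487 genes of the count table, and all 10 were found and passed the filter on low counts. Poly-A RNA was sequenced from the whole hippocampus, 1 library per mouse. All mice were wild type C57BL/6 males of 10 weeks. Maternal separation (MS) took pups away from the dam for 4 h per day between postnatal day (PND) 10 and 17, and standard reared (SR) mice served as controls. By the study's methods, whole nests were given to a condition, litters were balanced to the same number of males and females, and nesting material was reduced in the MS cages, so separation and scarce nesting cannot be told apart here. The labels name no nest, but animal numbers ran in sets of 3 consecutive mice of 1 condition (3 MS sets and 4 SR sets), and mice of a set may be littermates. P-values and intervals over mice then count mice of a set as independent.

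Oligodendrocyte precursor cells are found throughout the adult brain, where they divide and give rise to new myelinating oligodendrocytes. Precursors carry the PDGF receptor alpha and the proteoglycan NG2 on their surface, and both are lost as the cells differentiate. A short committed stage follows, marked by *Gpr17*, *Bmp4*, *Enpp6* and *Neu4*, before the myelin genes reach their full level. *Olig1*, *Olig2* and *Sox10* encode transcription factors that are present from the precursor to the mature oligodendrocyte. Their RNA in bulk tissue therefore comes from both.

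Total counts lay between 17276810 and 24052716 in MS and between 18368519 and 26450808 in SR, after 1 MS library (MS5) had been left out as the outlier of a principal component analysis, as the study did with 1 unnamed library. MS5 had a summed level of 191.9 CPM (counts scaled to the library total) for 8 markers of hippocampal neurons, against 547.8 to 1155 in the other 20 libraries, and 1969 CPM for 7 markers of striatal neurons, against 81.89 to 679.6. It was also the highest of the 21 libraries in several oligodendrocyte genes, with 78.5 CPM of *Sox10*, 14.5 CPM of *Enpp6*, 159 CPM of *Olig1* and 10500 CPM for the 16 myelin genes together. All values below are from 8 MS and 12 SR mice. CPM are relative to the library total after TMM normalization, and fold changes are MS against SR on the log2 scale with their standard error (SE) from edgeR.

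Within the hippocampus the 10 genes covered a wide range of levels. Per kilobase of exon, *Olig1* was the highest at 55.9 ± 5.29 CPM (SD, n = 20) and lay above *Tnr* in 20 of 20 mice, with ranges apart. *Tnr* (19.0 ± 2.32) and *Sox10* (17.3 ± 2.07) were neighbours whose ranges overlapped, as were *Gpr17* (11.3 ± 1.31) and *Olig2* (9.81 ± 1.22). *Pdgfra* (5.45 ± 0.357) stood apart from both its neighbours in the order, below *Olig2* and above *Neu4* in all 20 mice. *Neu4* (2.65 ± 0.196) and *Cspg4* (2.51 ± 0.223) overlapped, and *Bmp4* (1.5 ± 0.40) and *Enpp6* (1.40 ± 0.224) were the lowest and changed places between mice, with *Bmp4* above *Enpp6* in 12 of 20. *Pdgfra* varied least between mice, with a coefficient of variation of its CPM of 6.55%. *Bmp4* varied most, at 26.6%, on 42 to 106 counts per library, where counting error is large, and *Enpp6* had 15.9% on 116 to 267 counts.

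To ask whether maternal separation left a lasting mark on these genes, MS was compared with SR mice across all 18146 genes that passed the filter. None of the 10 genes was called. At an adjusted p under 0.05 edgeR called 0 of 10 members, where 0.011% of all genes were called, and at an unadjusted p under 0.05 it again gave 0 of 10, where 11.5% of all genes passed. DESeq2 called 0 of 10, where it called 0.966% of all genes. In each of the 10 genes the MS and SR values overlapped, and how many of all genes do so was not counted. The median log2 fold change of the 10 genes was -0.02, against 0.00 over all genes tested, with 3 genes higher and 7 lower in MS. Over all genes tested 9136 were higher and 9010 lower, and with MS5 included 7 of the 10 members were higher and 3 lower. In bulk tissue a difference in the number of these cells and a difference in RNA per cell cannot be told apart.

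**Figure D1:**
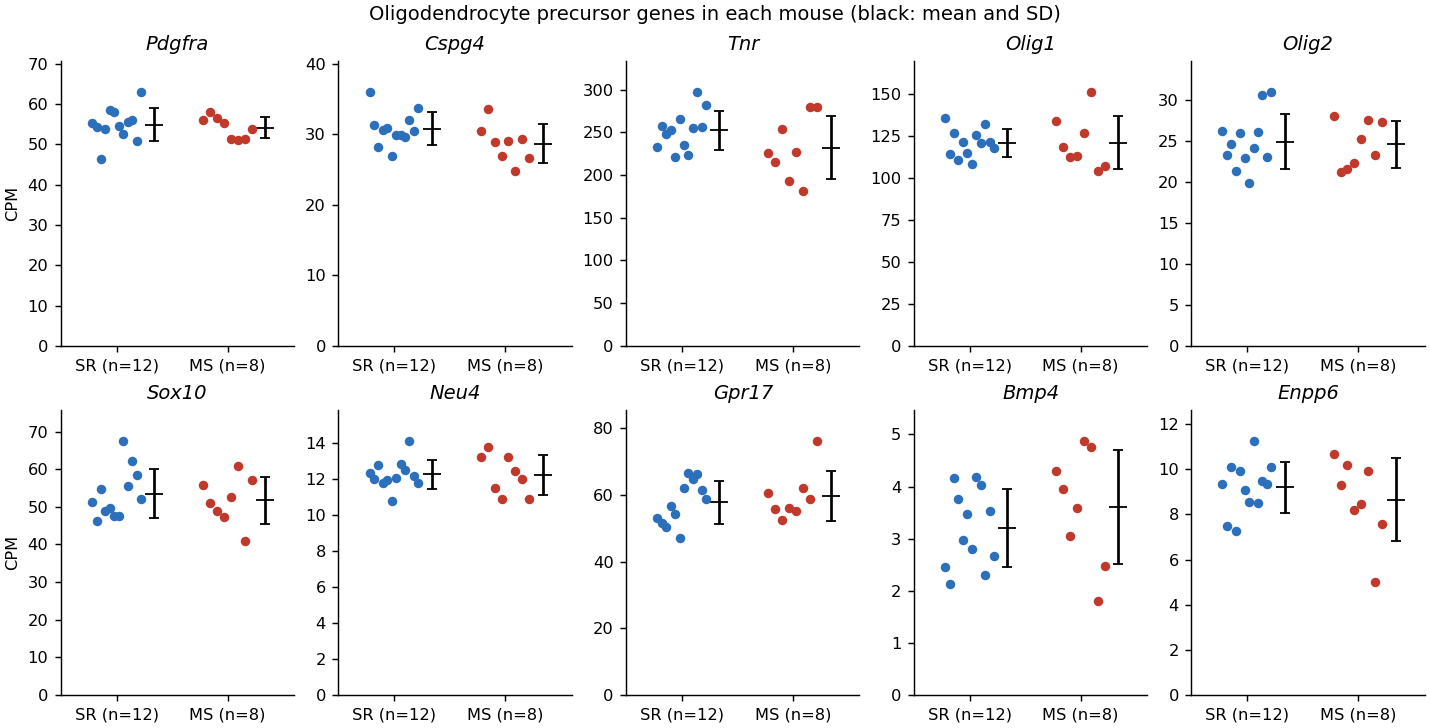
CPM of each of the 10 genes in each of 12 SR and 8 MS mice (1 point per mouse), with the mean and SD of the group in black and axes that start at 0. The points of both groups overlap for all 10 genes, and a lone MS mouse stands at 76.2 CPM of *Gpr17* and another at 5.00 CPM of *Enpp6*.

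The precursor surface and matrix genes were close to their control level. *Pdgfra*, the receptor through which PDGF-A drives division and survival of precursors, ranged from 51.2 to 58.0 CPM in MS (median 54.6) and from 46.4 to 63.1 CPM in SR (median 54.9). The MS values lay inside the SR range, the log2 fold change was -0.02 (SE 0.04; adjusted p = 0.911, edgeR), and the 95% interval of the fold change ran from 0.926 to 1.05. *Cspg4*, which encodes NG2 and is also made by pericytes, ranged from 24.7 to 33.6 CPM in MS (median 28.9) and from 27.0 to 36.0 in SR (median 30.5). Its MS values were shifted slightly down, with MS7 (24.7 CPM), MS9 (26.6) and MS4 (26.8) below every SR mouse, and the others overlapped with SR. The log2 fold change was -0.10 (SE 0.05; p = 0.0673, adjusted p = 0.475, edgeR), the smallest p of the 10 genes, and the interval of the fold change was 0.861 to 1.01. It was -0.14 without MS2 (p = 0.0116, adjusted p = 0.339, edgeR) and -0.08 without MS7. *Tnr*, which encodes the matrix glycoprotein tenascin-R and is also made by some neurons, ranged from 182 to 280 CPM in MS (median 227) and from 221 to 298 in SR (median 254). Some MS mice lay below every SR mouse and none above. The log2 fold change was -0.12 (SE 0.07; adjusted p = 0.560, edgeR), with an interval of 0.828 to 1.02. *Cspg4* and *Tnr* kept their sign in 37 of 37 alternative settings and *Pdgfra* in 34, and none of these called any of the 3 genes.

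*Pdgfra* lies at chr5:75152292-75198215, *Cspg4* at chr9:56865033-56899870 and *Enpp6*, a gene of the committed stage, at chr8:46986887-47096762, all on the plus strand of GRCm38. Their promoters are shown because *Enpp6* varied with the myelin genes from mouse to mouse and the other 2 did not do so measurably. The sequences are RefSeq's for GRCm38.p6, 5′ to 3′ on the plus strand up to the first annotated base of the gene or close before it. Capitals mark ACAAT or its reverse complement ATTGT, a core recognised by SOX proteins, which was searched on both strands together with CAGCTG, an E-box of the kind that OLIG proteins bind.

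*Pdgfra*, chr5:75152001-75152250: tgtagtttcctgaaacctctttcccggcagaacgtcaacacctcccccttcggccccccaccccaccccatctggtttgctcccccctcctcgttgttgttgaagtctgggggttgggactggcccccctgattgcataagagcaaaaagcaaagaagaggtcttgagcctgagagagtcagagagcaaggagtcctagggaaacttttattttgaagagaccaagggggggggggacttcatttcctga

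*Cspg4*, chr9:56864854-56865032: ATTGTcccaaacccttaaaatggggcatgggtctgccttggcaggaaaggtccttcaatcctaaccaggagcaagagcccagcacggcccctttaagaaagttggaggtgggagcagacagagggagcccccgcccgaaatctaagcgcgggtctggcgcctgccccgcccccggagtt

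*Enpp6*, chr8:46986637-46986886: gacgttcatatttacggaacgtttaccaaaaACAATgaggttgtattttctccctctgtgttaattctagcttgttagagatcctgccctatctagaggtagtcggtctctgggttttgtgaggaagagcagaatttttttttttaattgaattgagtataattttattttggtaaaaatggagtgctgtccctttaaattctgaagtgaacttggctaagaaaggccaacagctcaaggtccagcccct

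Promoters of 7 of the 10 genes were matched, as windows of 250 bases before and 50 after the start. The SOX core was present in 4 of 7 (*Cspg4*, *Olig2*, *Neu4* and *Enpp6*), where 31.0% of 32851 mouse promoters held it, and the E-box in 0 of 7, where 16.3% held it. No match overlapped another. These are matches of letters and say nothing of binding.

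None of the transcription factor genes was called. *Olig1* ranged from 104 to 151 CPM in MS (median 116) and from 108 to 136 in SR (median 121), so the MS mice spread wider on both sides. Its log2 fold change was 0.00 (SE 0.06; adjusted p = 0.995, edgeR) and the interval of the fold change 0.921 to 1.09. *Olig2*, which lies at chr16:91225457-91228677, near *Olig1* at chr16:91269772-91271933, and is needed for the lineage to form, ranged from 21.3 to 28.1 CPM in MS (median 24.3) and from 19.9 to 31.1 in SR (median 24.4). The MS values lay within those of SR, with a log2 fold change of -0.02 (SE 0.08; adjusted p = 0.947, edgeR). *Sox10*, which acts on myelin genes directly, ranged from 40.8 to 60.8 CPM in MS (median 51.8) and from 46.3 to 67.6 in SR (median 51.7). The medians were almost equal and the log2 fold change was -0.05 (SE 0.07; adjusted p = 0.857, edgeR), with an interval of 0.870 to 1.08.

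Among the genes of the committed stage, the widest intervals were those of the lowest counts. *Neu4*, a sialidase, had 10.9 to 13.8 CPM in MS (median 12.2) and 10.8 to 14.2 in SR (median 12.1), and its log2 fold change was 0.00 (SE 0.06; adjusted p = 0.994, edgeR). *Gpr17*, a receptor of the committed stage, had 52.5 to 76.2 CPM in MS (median 57.4) and 47.1 to 66.5 in SR (median 57.7). MS mouse MS9 lay above every SR mouse, the other MS mice lay within the SR range, and the log2 fold change was 0.05 (SE 0.07; adjusted p = 0.851, edgeR), or -0.01 without MS9. *Bmp4*, a secreted signal that holds back myelination when in excess, had 1.81 to 4.88 CPM in MS (median 3.77) and 2.14 to 4.18 in SR (median 3.22). MS mice were found both below and above the SR range. The log2 fold change was 0.17 (SE 0.17; adjusted p = 0.751, edgeR), and the interval of 0.882 to 1.43 was the only one of the 10 to reach beyond 1.3-fold. *Enpp6*, a choline phosphodiesterase that appears as precursors commit to differentiation, had 5.00 to 10.7 CPM in MS (median 8.87) and 7.26 to 11.3 in SR (median 9.36). MS mouse MS8 was below every SR mouse, and the log2 fold change was -0.09 (SE 0.11; adjusted p = 0.795, edgeR) with an interval of 0.806 to 1.10. Without MS8 it was 0.00 for *Enpp6* and also 0.00 for *Sox10*.

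**Figure D2:**
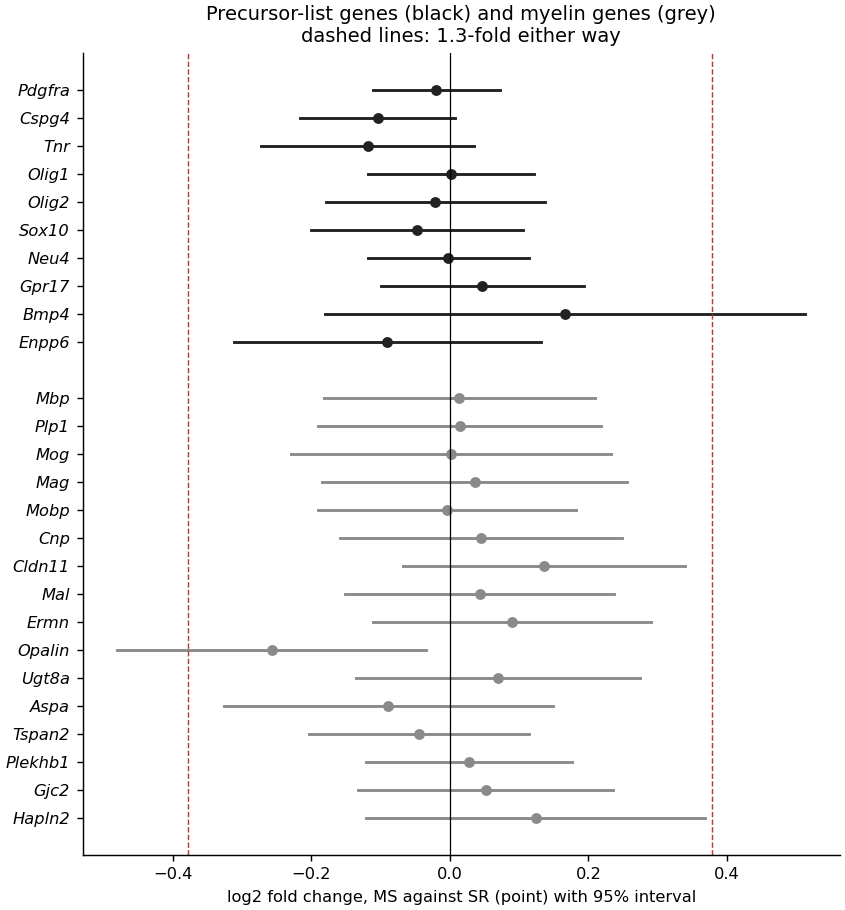
Log2 fold change of MS against SR (points) with 95% intervals from edgeR for the 10 genes (black) and 16 myelin genes (grey), with dashed lines at 1.3-fold either way. For 9 of 10 genes the whole interval lies within 1.3-fold, *Bmp4* being the exception.

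For 9 of the 10 genes the 95% interval, which takes the mice as independent, lay within 1.3-fold in either direction. How many of all genes do so was not counted. In simulated counts of the same size, edgeR called 48% of genes changed by 1.3-fold and 68% of those changed by 1.5-fold. These shares are over changed genes among 18146 simulated ones, not over genes with the counts and SE of the 10 members. Among the members the SE of the log2 fold change ran from 0.04 (*Pdgfra*) to 0.17 (*Bmp4*). How small a difference in the 10 genes this design could call was not tested. With the 7 sets in place of mice, exact two-sided permutation tests over all 35 splits gave p-values from 0.0857 (*Tnr*) to 0.914 (*Olig1*), and the smallest p that 3 against 4 sets allow is 0.0286.

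Animal numbers fell in a lower and a higher range, each with MS and SR mice (5 MS and 9 SR in the lower, 3 MS and 3 SR, each from 1 set, in the higher). For *Pdgfra* the log2 fold change was 0.04 in the lower and -0.16 in the higher range, and the difference had p = 0.0312 but an adjusted p of 0.537 (edgeR interaction). It was the 1 gene of 10 with an unadjusted p under 0.05 there, where 8.67% of all genes passed. *Cspg4* went from -0.04 to -0.24 (adjusted p of the difference = 0.617) and *Enpp6* from 0.03 to -0.32 (adjusted p = 0.662), neither past the threshold. In the whole table edgeR called 230 genes in the lower range and 0 in the higher.

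The genes around the members in their pathways were also examined, from lists written with the members. Of the 16 myelin genes 0 were called. Their log2 fold changes had a median of 0.03, and 12 of 16 were higher in MS. The median was 0.10 without MS8 and -0.02 without MS7, and with a choroid plexus score per mouse as a term it was -0.03, with 3 of 16 higher. The extremes were *Opalin* (-0.26, SE 0.11; adjusted p = 0.360, edgeR), a membrane protein of mature oligodendrocytes, and *Cldn11* (0.14, SE 0.10), the claudin of myelin. Of 14 further precursor genes 0 were called, with a median of -0.03, from *Sema5a* (-0.11) to *Susd5* (0.11). Of 13 further genes listed for the committed stage 12 could be tested and 0 were called, with a median of -0.04. They ran from *9630013A20Rik* (-0.14) to *Tcf7l2* (0.45), a transcription factor that is also strongly expressed in the thalamus. The value of *Tcf7l2* rested on MS1, which had 23.0 CPM against medians of 6.03 CPM in MS and 5.93 CPM in SR, and without MS1 it was 0.03. Of 14 regulators of the lineage 0 were called, from *Zfp488* (-0.14) to *Id4* (0.19), an inhibitor of differentiation. The value of *Id4* also rested on MS1 (101 CPM, with medians of 58.9 CPM in MS and 60.1 CPM in SR) and was 0.08 without it (p = 0.166, edgeR). An unadjusted p under 0.05 was found for 1 of the 12 (*Itpr2*, -0.11) and 2 of the 14 (*Id4* and *Sox2*, 0.16), and for 1 of the 16 myelin genes (*Opalin*), where 11.5% of all genes passed, so these counts were near the share over all genes. *Itpr2* and *Sox2* are named after their values were seen.

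The ligands and receptors of the 2 signalling pathways represented among the members gave no call. Of 5 genes around *Pdgfra* in PDGF signalling, *Pdgfrb* had the lowest value (-0.10) and *Pdgfd* the highest (0.30, SE 0.15; adjusted p = 0.433, edgeR). *Pdgfd* was at 0.47 in the lower and -0.06 in the higher range of animal numbers. Of 18 genes around *Bmp4* in BMP signalling 13 were higher in MS, with a median of 0.06, from the antagonist *Grem1* (-0.07) to the ligand *Bmp6* (0.49, SE 0.30; adjusted p = 0.557, edgeR). An unadjusted p under 0.05 was found for 4 of the 18, namely the target genes *Id1* (0.27) and *Id3* (0.19), the signal transducer *Smad5* (0.10) and the receptor *Bmpr1a* (0.08), named after their values were seen. Over all genes 11.5% passed. Their adjusted p-values were 0.288 or more. Markers of choroid plexus had values in the same direction over all mice, with 7 of 7 higher in MS and 0.90 as the median of their log2 fold changes. Their summed levels were 54.2 to 4197 CPM in MS (median 3317) and 30.2 to 4537 CPM in SR (median 838). In the lower range of animal numbers all 7 were higher in MS (1.23 to 1.74) and in the higher range all 7 were lower (-1.40 to -0.88), and *Bmp6* went from 0.95 to -0.68. None of the 7 was at 0 CPM in any mouse, and 0 of 7 were called. With the choroid plexus score of each mouse as a term, *Bmp6* went from 0.49 to 0.02, *Id1* from 0.27 to 0.13, *Id3* from 0.19 to 0.11, *Smad5* from 0.10 to 0.09, *Bmpr1a* from 0.08 to 0.06 and *Pdgfd* from 0.30 to 0.09. *Bmp4* itself went from 0.17 to 0.02. Other values grew in size with this term, such as *Nog* of the BMP list (from 0.22 to 0.28), *Enpp6* (from -0.09 to -0.18) and *Gpr17* (from 0.05 to 0.08). The term was added after the data were seen, and a part of choroid plexus tissue in these values was not tested. The summed levels of 8 pericyte markers (171.5 to 202.8 CPM in MS and 167.4 to 223.2 in SR) and of 7 fibroblast markers (42.2 to 108 CPM in MS and 40.2 to 100.2 in SR) overlapped, which bears on *Cspg4* and *Pdgfra* as genes that those cells also express.

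Mice also differed from each other within a group, and a further question was whether the members varied with the myelin genes. A myelin score was computed for each mouse as the mean z-score of log2 CPM over the 16 myelin genes. It ran from -2.62 (MS8) to 1.49 (MS7), and its mean was 0.01 ± 1.26 (SD) in MS and 0.00 ± 0.664 in SR. Summed myelin CPM ran from 4490 to 8700 in MS and from 5511 to 8308 in SR.

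*Enpp6*, *Sox10* and *Olig1* varied with the myelin score from mouse to mouse. The correlation of *Enpp6* was r = 0.85 over 20 mice (95% interval 0.66 to 0.94; rho = 0.74; adjusted p = 0.0002 for r and 0.000933 for rho, permutation tests over the 10 genes). *Sox10* had r = 0.80 (rho = 0.75; adjusted p = 0.0002 and 0.000933, permutation) and *Olig1* r = 0.77 (rho = 0.78; adjusted p = 0.000567 and 0.000933, permutation). MS8, the mouse with the lowest myelin score, also had the lowest *Enpp6* (5.00 CPM), *Sox10* (40.8 CPM) and *Olig1* (104 CPM) of the 20 mice, and SR8, with the second highest score, had the highest *Enpp6* (11.3 CPM) and *Sox10* (67.6 CPM). SR8 was also high in the mean z-score of the striatal neuron markers (2.17), second to MS1 (2.91), whose myelin score was 1.26. Both mice are kept in all values below, and a part of striatal tissue in the relation was not tested. Without MS8 and MS7, the mice farthest from the median score, r was 0.73 for *Enpp6*, 0.69 for *Sox10* and 0.67 for *Olig1*. The relation was present within MS (0.87, 0.88 and 0.79) and within SR (0.88, 0.79 and 0.73), and within both ranges of animal numbers (0.82, 0.75 and 0.74 in the lower and 0.90, 0.94 and 0.81 in the higher). After the mean of each set had been subtracted it was 0.94, 0.89 and 0.79. Per unit of log2 of the myelin genes, log2 CPM of *Enpp6* moved by 1.05 ± 0.15 (SE), that of *Sox10* by 0.65 ± 0.12 and that of *Olig1* by 0.49 ± 0.09.

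**Figure D3:**
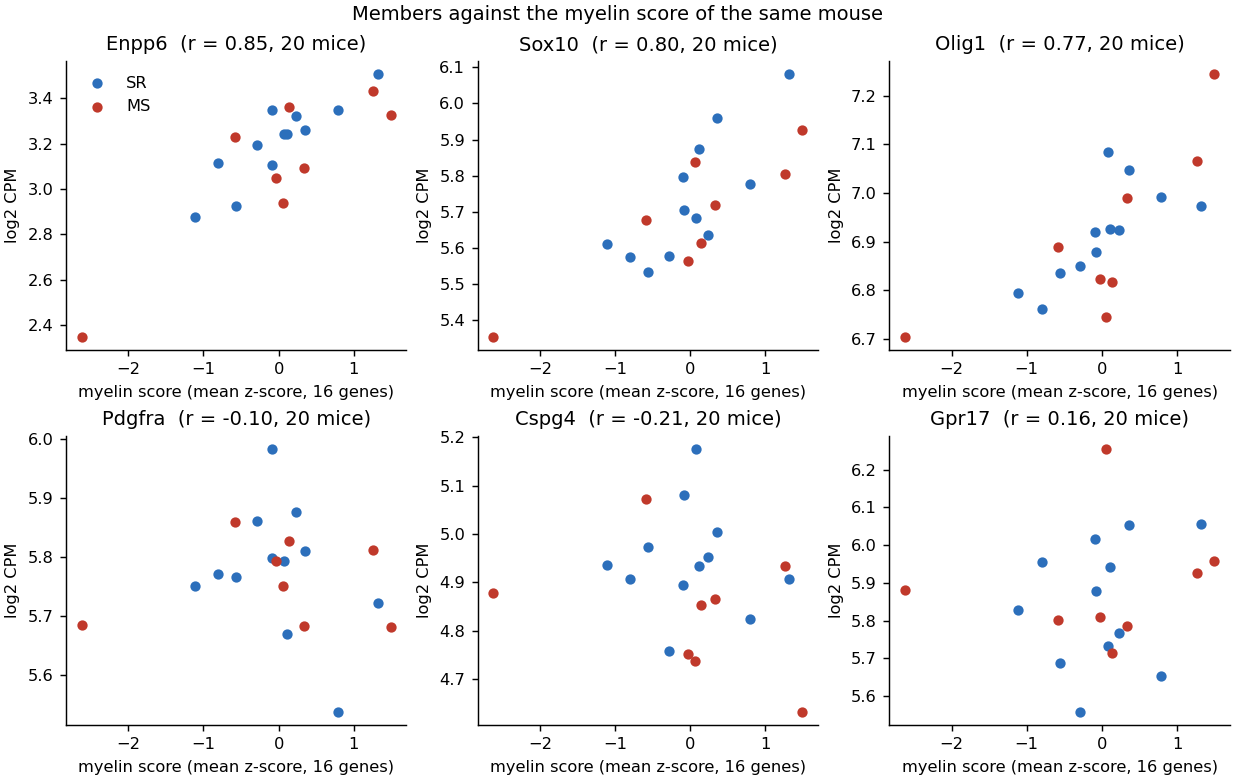
Log2 CPM of 6 of the genes against the myelin score of the same mouse (mean z-score over 16 myelin genes), with 12 SR mice in blue and 8 MS mice in red. *Enpp6*, *Sox10* and *Olig1* follow the score in both groups (r = 0.85, 0.80 and 0.77), while *Pdgfra*, *Cspg4* and *Gpr17* scatter (r = -0.10, -0.21 and 0.16), and MS8 lies alone at a score of -2.62.

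The precursor surface and matrix genes had correlations near or below 0. *Pdgfra* had r = -0.10 (interval -0.52 to 0.35; adjusted p = 0.65, permutation), *Cspg4* r = -0.21 (adjusted p = 0.473, permutation) and *Tnr* r = -0.44 (adjusted p = 0.0934, permutation), the last falling to -0.14 without MS8 and MS7. *Gpr17*, although a gene of the committed stage like *Enpp6*, had r = 0.16 (interval -0.30 to 0.56; adjusted p = 0.55, permutation), and *Neu4* r = 0.29 (adjusted p = 0.301, permutation). The correlations themselves were compared over all 45 pairs of members by swapping the values of the pair at random within mice, and 19 of 45 differed at an adjusted p under 0.05. Those of *Enpp6*, *Sox10* and *Olig1* each differed from those of *Pdgfra*, *Cspg4*, *Tnr*, *Neu4* and *Gpr17*, for example by 0.96 between *Enpp6* and *Pdgfra* (adjusted p = 0.00801, permutation) and by 0.69 between *Enpp6* and *Gpr17* (adjusted p = 0.0189, permutation). The difference of 0.10 between *Pdgfra* and *Cspg4* (adjusted p = 0.613, permutation) and that of 0.05 between *Enpp6* and *Sox10* (adjusted p = 0.487, permutation) did not pass the threshold.

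*Bmp4* and *Olig2* were between these groups, and their result depended on the measure. For *Bmp4* r was 0.61 (adjusted p = 0.00843, permutation) but rho 0.50 (adjusted p = 0.0531, permutation). Its r fell to 0.33 without MS8 and MS7, and it was 0.80 within MS and 0.31 within SR. In the lower and the higher range of animal numbers r of *Bmp4* was 0.46 and 0.75, and for deviations from set means 0.66. For *Olig2* r was 0.46 (adjusted p = 0.0761, permutation) and rho 0.56 (adjusted p = 0.0291, permutation), with r of 0.73 and 0.66 within the lower and the higher range of animal numbers. In all, 4 of 10 genes passed by r and 4 of 10 by rho. Only the 10 members were tested in this way, so no share over all genes can be set beside these counts.

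Other cell types were set beside the myelin score in the same way, over 6 lists chosen after the member correlations were seen. The score of 12 further genes listed for the committed stage followed it closely (r = 0.85, rho = 0.81; adjusted p = 6e-05 and 0.00036, permutation), within both MS (0.91) and SR (0.89), and without MS8 and MS7 (0.79). Its r was 0.84 in the lower and 0.92 in the higher range of animal numbers. That list includes *Bcas1*, *Fyn*, *Sirt2* and *Cd9*, and how much of their RNA came from mature oligodendrocytes was not tested. The score of 14 further precursor genes had r = -0.20 and rho = -0.24 (adjusted p = 0.599 and 0.902, permutation). Its r was 0.06 without MS8 and MS7, 0.06 in the lower range and -0.96 among the 6 mice of the higher range. Striatal neuron markers had r = 0.46 but rho = 0.05 (adjusted p = 0.167 and 0.916, permutation), with r = 0.56 without MS8 and MS7, 0.50 within MS, 0.41 within SR, and 0.59 and 0.75 in the lower and the higher range of animal numbers. Values were lower for choroid plexus markers (r = 0.37, rho = 0.10; adjusted p = 0.205 and 0.916, permutation), astrocyte markers (r = -0.11) and hippocampal neuron markers (r = -0.16). The part of neighbouring tissue in the spread of the myelin score was not tested.

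The level of the committed-stage genes was also taken relative to the myelin genes of the same mouse. On the log2 scale, relative to the mean over mice, which sets the overall average to 0, the 4 committed-stage genes minus the myelin genes came to 0.01 in the 8 MS mice (SD 0.14) and to -0.01 in the 12 SR mice (SD 0.11). The 3 precursor genes minus the myelin genes came to -0.05 (SD 0.36) in the MS mice and to 0.03 (SD 0.19) in the SR mice. In both measures the difference between groups was smaller than the SD within a group. The MS minus SR difference of the committed-stage measure was 0.02, and it was -0.07 with medians over genes and -0.02 with MS5 included.

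Correlations of the members among themselves are given as a description of 45 pairs over 20 mice, whose values share library and depth. The highest values were those of *Sox10* with *Enpp6* (r = 0.66), *Olig1* with *Sox10* (0.64) and *Olig1* with *Enpp6* (0.62). *Olig1* with *Neu4* had 0.57, *Olig1* with its neighbour *Olig2* 0.54 and *Pdgfra* with *Cspg4* 0.42. *Gpr17* went with *Sox10* (0.56) but not with *Enpp6* (-0.04) or *Olig1* (0.02). The lowest values were those of *Tnr* with *Bmp4* (-0.62) and with *Olig1* (-0.45).

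**Figure D4:**
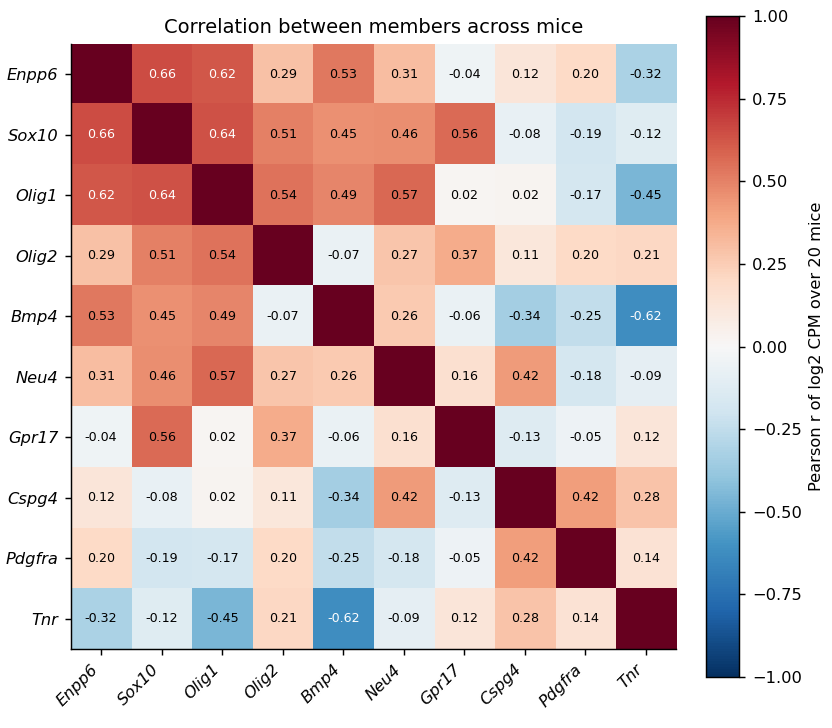
Pearson r of log2 CPM over 20 mice for each pair of the 10 genes, from blue (-1) to red (1), with the value printed in each cell. *Enpp6*, *Sox10* and *Olig1* form a block of 0.62 to 0.66, whereas *Tnr* is negative with *Bmp4* (-0.62) and *Olig1* (-0.45).

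Because *Cspg4* and *Pdgfra* are also expressed outside the lineage, they were set against scores of other lists (7 relations, chosen after their levels were seen). *Cspg4* followed the score of 14 further precursor genes (r = 0.63, rho = 0.63, adjusted p = 0.0215 and 0.0228, permutation). This r was 0.61 without the 2 mice farthest from the median of that score, 0.80 within MS and 0.52 within SR. It was 0.68 in the lower and 0.56 in the higher range of animal numbers. With 8 pericyte markers r of *Cspg4* was 0.03 (adjusted p = 0.926, permutation), with 0.39 within MS and -0.23 within SR. The source of *Cspg4* RNA was not tested. *Pdgfra* had r = 0.30 with the further precursor genes (adjusted p = 0.48, permutation) and 0.02 with 7 fibroblast markers (adjusted p = 0.926, permutation). *Tnr* had r = -0.12 with the precursor genes and -0.33 with 7 interneuron markers (adjusted p = 0.48, permutation), the latter -0.69 in the lower and 0.62 in the higher range of animal numbers. *Gpr17* had r = 0.12 with the precursor genes (adjusted p = 0.874, permutation).

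The genes of the whole table most like each group of members, by Pearson r with the mean z-score of the group over 20 mice, included myelin genes for the transcription factors and the committed-stage genes. Nearest to *Olig1*, *Olig2* and *Sox10* were *Josd2* (r = 0.87), *Mbp*, the gene of myelin basic protein (0.85), *Gatm* (0.82), *Mcam* (0.82) and *Carns1* (0.82). Nearest to *Neu4*, *Gpr17*, *Bmp4* and *Enpp6* were *Adamts4* (0.87), again *Carns1* (0.84), *S1pr5* (0.84) and the myelin genes *Cldn11* (0.80) and *Hapln2* (0.80). The median r of the 16 myelin genes was 0.74 with the transcription factors and 0.75 with the committed-stage genes, and -0.35 with the precursor genes, whose nearest were *Mfsd4b4* (0.84), *Sptbn1* (0.81), *Gm19026* (0.81), *Hps1* (0.80) and *Gnl3l* (0.80). *Mfsd4b4* has near-identical copies and its counts are uncertain. For single genes, exon overlap with genes on the opposite strand concerned *Pdgfra* (456 bases with *Gm42802*), *Tnr* (443 with *Gm38039*), *Gpr17* (188 with *Lims2*), *Olig1* (157 with *Gm15966*) and *Bmp4* (89 with *Gm15217*), and how strand was used in counting is not given in the sources used here.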

How the data were processed

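Hippocampal poly-A RNA of 9 MS and 12 SR mice was sequenced (directional library kit, paired-end reads). The authors aligned reads to GRCm38 with STAR 2.7.3a, counted them with featureCounts and deposited 1 table of raw counts per Ensembl gene, not normalized. Per the submitters' processing notes these are the tools. The strand setting of the counting is not given in the sources used here. Columns of no sample numbered 0, and groups follow the treatment label.

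From the counts, the library farthest on the first principal component (DESeq2 1.42.0, 500 most variable genes, 47.5% of the variance) was left out. The quasi-likelihood test of edgeR 4.0.16 (robust, TMM, filterByExpr with minimum count 10, R 4.3.3) was fitted on all 18146 genes, with Benjamini-Hochberg adjustment and a threshold of 0.05; the biological coefficient of variation was 13.3%. Scores are means of z-scores of log2 CPM (prior count 2, SD over 20 mice), with 100000 permutations per correlation. Counts per library of 17276810 to 26450808 leave counting error that matters for *Bmp4* and *Enpp6*. The fit was tested on simulated counts of 18146 genes, where edgeR called 48% of genes changed by 1.3-fold and 82% of those changed by 2-fold, and 5 unchanged genes.

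Symbols and positions are GENCODE M21's (GRCm38), and promoters RefSeq's (GRCm38.p6). The members and lists were chosen with earlier results of these data known. Named were the 10 members, the lowest and highest gene and any called gene of each list, and the 5 genes most like each member group, besides exceptions said to be chosen later. Alternatives kept MS5 in (21 libraries), used DESeq2 (Wald test or only its size factors), dropped or tightened the filter on low counts, or took the range of animal numbers or the myelin score as a term. Others were sums per set, limma-voom (limma 3.58.1) with the set as a random block, and each mouse and set left out. The choroid plexus score as a term and deviations from set means were added after seeing the data.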

Additional observations from a re-analysis of the deposited data

Results flagged for a closer look

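In *Gpr17*, MS mouse MS9 stood apart from the other 7 MS mice. It had 76.2 CPM against 52.5 to 62.1 CPM in the others, and its gap to the nearest of them was 0.596 of the group's range, above Dixon's 95% critical value of 0.526 for 8 samples. Without MS9 the log2 fold change of *Gpr17* was -0.01 in place of 0.05. Its *Sox10* was 57.2 CPM and its myelin score 0.057, both within the values of the other mice. The lowest and the highest MS mouse were examined for each gene and score, and chance alone gives about 1 flag in 20 groups.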

How the results depend on the processing

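None of the 10 genes was called in any of 37 alternatives. Some of these (DESeq2, sums per set, limma-voom) changed scaling, filter or model together with the test. The smallest adjusted p of any of them was 0.155 (*Tnr*). *Cspg4* (-0.18 to -0.05), *Tnr* (-0.18 to -0.07) and *Bmp4* (0.02 to 0.30) kept the sign of their log2 fold change in all 37, and *Olig1*, near 0 throughout (-0.05 to 0.05), kept it in 19. *Enpp6* ran from -0.24 without set M2 (MS1 to MS3) to 0.02 without set M3 (MS7 to MS9), *Gpr17* was -0.05 without set M3, and the median of the 10 genes from -0.05 to 0.02, the upper value with MS5 included. The count of called genes in the whole table ranged from 0 to 340, the latter without set M3, with 109 without MS8 alone, 109 without MS9 alone and 134 by DESeq2. The cause was not tested. Correlations with the myelin score kept their direction for the scores of the 3 groups of genes. That of the precursor score was -0.35, with a 95% interval of -0.68 to 0.11. It went to -0.25 with MS5 included and to -0.58 for deviations from set means. Single precursor genes changed direction. *Cspg4* went from -0.21 to 0.09 with MS5 included and to -0.46 for deviations from set means, and *Pdgfra* from -0.10 to 0.11 within MS. The transcription factors had 0.80, with 0.94 in the higher range of animal numbers and 0.91 for deviations from set means. The committed-stage genes had 0.76, with 0.63 without the 2 farthest mice and 0.92 in the higher range. The replicate numbers only name the mice in order. No paired analysis was possible because the labels give no numbers that mice of both groups share. Depth limits *Bmp4* most, at 42 to 106 counts per library.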
